A study of Mus musculus with 4 samples.

Results

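The genes described here are the mouse Gpr and Gprc5 genes, most of which encode orphan G protein-coupled receptors, and the measurement is how much of each mRNA came down with CPEB3. They were chosen by name, as the array rows that are no control spot and whose gene name is Gpr followed by a number or begins with Gprc5. That gave 98 names on 123 probes, out of 34964 array entries. After 20 symbols were updated (Gpr56, for example, is now Adgrg1) they formed 99 entries, because 1 of the probes named Gpr98 could not be tied to the newer symbol Adgrv1. Of these, 81 entries passed the filter, a signal well above background on 2 or more of the 4 arrays, and were tested, and 71 were above background on all 4.

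The study precipitated RNA from lysate of cortex and hippocampus of C57BL/6 male mice aged 8 weeks, mixed for 3 h with beads carrying CPEB3 IgG in one group and control IgG in the other. Each group had 2 arrays, and the labels name no genetic change in either. CPEB3 is a cytoplasmic polyadenylation element binding protein, which attaches to the 3′ ends of neuronal mRNAs and regulates their translation. Whether the 2 replicates of a group were separate lysates or animals is not in the labels. The p-values reflect the spread between these arrays, which may not stand for that between animals. How much of it was technical was not tested. No input RNA was analysed here. Differences are on the log2 scale, as CPEB3 IgG minus control IgG.

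G protein-coupled receptors cross the membrane several times and pass a signal to a heterotrimeric G protein, whose alpha and beta-gamma parts then act on enzymes and channels. Receptor kinases and arrestins switch the receptor off, and Rgs proteins shorten the signal of the alpha subunit. Receptors with no agreed ligand are called orphans. Many of them are found in brain, and several of those coupled to the stimulatory G protein signal without a ligand. The adhesion receptors carry long extracellular regions that bind matrix or neighbouring cells, and class C holds the relatives of the metabotropic glutamate receptors.

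Neuronal markers passed the filter in these precipitates, at levels that differed widely between genes. A level is the log2 signal minus that of the array's 75th percentile. This percentile was at 507 and 353 intensity units on the CPEB3 IgG arrays, against 443 and 425 on the control IgG arrays. Neurod6, a transcription factor of cortical excitatory neurons, lay between 3.50 and 4.10 on the 4 arrays, while Alb and Apoa1 of liver did not pass the filter. Of 3 cerebellar markers, Gabra6 did not pass the filter, Pcp2 lay between −0.67 and −0.20, and Calb2, which interneurons also express, was lower with CPEB3 IgG (−3.08, adjusted p = 0.0452). Of 5 astrocyte markers 2 were higher with CPEB3 IgG (Slc1a3 by 3.16, Gja1 by 0.93) and 1 was lower (Aldh1l1, −3.03). The summed level of the list was 6.40 and 5.61 with CPEB3 IgG, against 5.44 and 5.11 with control IgG. Of 5 microglial markers 0 were higher and 1 was lower (Aif1, −2.34), with summed levels of 4.38 and 3.92 with CPEB3 IgG, against 4.80 and 4.61 with control IgG. The excitatory list had 1 lower gene of 6 (Tbr1, −1.60, with levels of −1.87 and −1.11 with CPEB3 IgG, against −0.01 and 0.23 with control IgG), and the inhibitory, oligodendrocyte and endothelial lists had 0 called of 3, 5 and 3. The part of these shifts in the receptor results was not tested. The arrays of each antibody lay in a row of their own on the slide, so row and antibody cannot be told apart. By the labels the groups differ in antibody, and the levels are of mRNA in the precipitate. The cause of these shifts was not tested. Cell numbers and mRNA per cell were not measured.

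The probes through which several of the results below were read are shown first, as 30 bases of the 60-base probe in the sense of the mRNA, because CPEB proteins are known for binding T-rich (in RNA, U-rich) elements near 3′ ends. Capitals mark 1 motif in a stretch, which was TTTTAT or TTTTAAT (forms of the cytoplasmic polyadenylation element), AATAAA or ATTAAA (polyadenylation signals) or TTTTT. The all-lower-case stretches hold none of the 5, and those of Gpr61 and of the first Gprc5b probe also hold AATAAA.
Gpr158: tgcaagaATTAAAtgctttacaacataaat
Gprc5b, probe nearer the 5′ end: tgagctgagtgTTTTAATaaatctgatatt
Gprc5b, probe nearer the 3′ end: atgagagcccttggcaggtgctttattcat
Gpr153: tgtacaggacccAATAAAaaattcctcatg
Gpr137b: attcatgtcagcAATAAAaagactacagct
Gpr85: actgtattatgtgTTTTTtgttgattcagt
Gpr12: acagtggaaatcatcttaccagtgTTTTTt
Adgra2: aaacacattttaaaagctctggTTTTATac
Gpr61: acaaccaataaaTTTTATgataaaaagtta
Gprc5c, probe nearer the 5′ end: gtaagggtgcctAATAAAtacatttctgct
Gprc5c, probe nearest the 3′ end: taactgctcagaATTAAAcgactgcccttt
Gpr18: tactggacctcgtatttatactcagtctgc
In mm9, the Gpr158 probe is chr2:21751824-21751883 (+ strand), and the Gprc5b probes are chr7:126117168-126117227 and chr7:126115825-126115884 (− strand). Those of Gpr153 and Gpr137b are chr4:151659386-151659445 (+) and chr13:13449891-13449950 (−). Gpr85 was read at chr6:13785092-13785151 (−), Gpr12 at chr5:147394520-147394579 (−), Adgra2 at chr8:28233778-28233837 (+) and Gpr61 at chr3:107951584-107951643 (−). The Gprc5c probes are chr11:114730346-114730405 and chr11:114733870-114733929 (+), and the Gpr18 probe is chr14:122311608-122311667 (−). Exon, intron and UTR annotation of this build was not used here.

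Receptor mRNAs were called higher with CPEB3 IgG more often than lower. Of the 81 tested genes, 28 rose and 5 fell, while 48 were not called (limma, Benjamini-Hochberg adjusted over all entries, called at an adjusted p of 0.05). That is 34.6% higher and 6.17% lower, where 19.2% of all 27687 entries were called higher and 20.2% lower (39.4% in either direction). The median difference of the tested receptor genes was 0.45, against −0.14 over all entries, and 54 of 81 (66.7%) had a positive difference against 43.1% of all entries. Scaling on the spike-in spots moved the median of the receptor genes to 1.101 and that of all entries to 0.51, and median scaling moved them to 0.74 and 0.15. Median, spike-in and no scaling shift all genes of an array equally, so the gap between the medians, 0.59, could not change with them. It could change with quantile normalization (medians of 0.54 and 0.03), cyclic loess (0.56 and 0.01) and normexp background correction (0.26 and −0.07). The receptor median was positive under each of the scalings tried. Of all calls, 48.7% were higher in the fit reported here, against 68.4% with median scaling and 86.4% with spike-in scaling. Leaving out CPEB3 IgG replicate 1 left 13 higher and 2 lower receptor genes. Leaving out CPEB3 IgG replicate 2 left 13 and 3, and leaving out control IgG replicate 2 left 26 and 3. With the filter set to all 4 arrays, 26 of 71 receptor genes were higher and 5 lower, and 48.9% of all calls were higher.

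**Figure D1:**
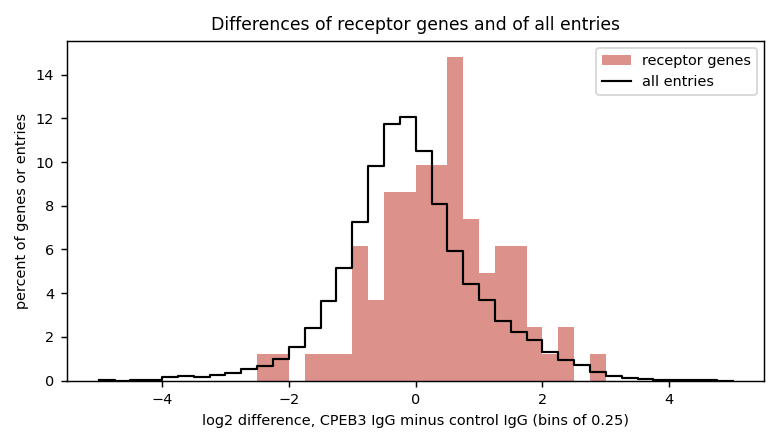
Percent of receptor genes (bars, 81 genes) and of all entries (line, 27687 entries) in each bin of the log2 difference, CPEB3 IgG minus control IgG. The receptor bars lie to the right of the line, with medians of 0.45 and −0.14.

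The class C receptors held the largest rise of the family. Gpr158, a neuronal receptor that recruits Rgs7 to the membrane, had levels of 4.40 and 4.14 with CPEB3 IgG, against 1.27 and 1.54 with control IgG. It was thus 7.30-fold higher (log2 difference 2.87 ± 0.19 SE, adjusted p = 0.00386) and ranked 168 from the top of all entries. The groups stood far apart compared with the gap between replicates. Gprc5b, a brain-enriched receptor of the retinoic acid-inducible subgroup, had levels of 3.89 and 3.22 with CPEB3 IgG, against 1.61 and 0.97 with control IgG (2.27 ± 0.35 SE, adjusted p = 0.0116). Its call was lost without CPEB3 IgG replicate 1 (1.93, adjusted p = 0.0588). Gprc5c of the same subgroup was lower at its brightest probe, with −0.67 and −0.67 with CPEB3 IgG, against 0.19 and 0.04 with control IgG (−0.78 ± 0.15 SE, adjusted p = 0.0208). That call was lost without any of the 4 arrays in turn, at −0.86 to −0.71. Gprc5a and Gprc5d did not pass, with differences of 0.28 and −0.49.

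**Figure D2:**
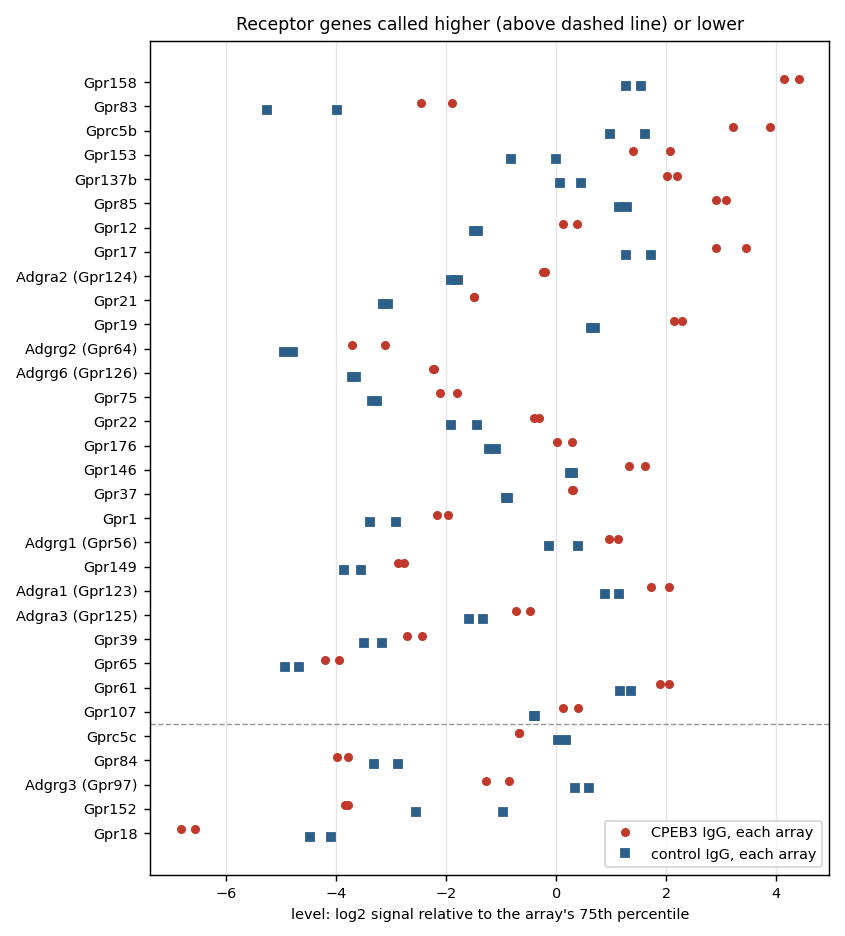
Levels on each array of 32 of the 33 receptor genes that were called, in log2 signal minus the array's 75th percentile, with CPEB3 IgG as circles and control IgG as squares. Genes above the dashed line were called higher and the 5 below it lower.

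Among the class A receptors known for signalling to the stimulatory G protein without a ligand, 3 of 9 rose and 0 fell, and 8 of the 9 differences were positive. That is 33.3% higher and 88.9% positive, against 19.2% and 43.1% of all entries, over few genes. Gpr12, which raises cyclic AMP, had levels of 0.13 and 0.38 with CPEB3 IgG, against −1.50 and −1.42 with control IgG (1.71 ± 0.17 SE, adjusted p = 0.00488). Gpr21 had −1.49 and −1.50 with CPEB3 IgG, against −3.14 and −3.05 with control IgG (1.60 ± 0.15 SE, adjusted p = 0.00438). Gpr61, at 2.06 and 1.90 with CPEB3 IgG, against 1.36 and 1.15 with control IgG, rose by 0.72 ± 0.17 (SE, adjusted p = 0.0331). The replicates of Gpr12 and Gpr21 lay close together, and both calls held in all 17 alternatives. Their differences were smaller with normexp background correction, at 1.34 and 0.83. The call of Gpr61 was lost with any 1 of the 4 arrays left out (0.62 to 0.82). Gpr3 and Gpr6, the closest relatives of Gpr12, differed by 0.82 (adjusted p = 0.0748) and 0.60 (adjusted p = 0.111) and did not pass. Gpr26, among the brighter genes of the group, had 0.92 and 1.26 with CPEB3 IgG, against 1.70 and 1.24 with control IgG, so that its groups overlapped. Its difference of −0.38 did not pass and had the other sign with spike-in scaling (0.28).

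The 3 tested SREB receptors, a family conserved in vertebrate brain, did not share a call. Gpr85 (SREB2), which is expressed in hippocampal neurons, had 2.91 and 3.10 with CPEB3 IgG, against 1.14 and 1.29 with control IgG. It was 3.46-fold higher (1.79 ± 0.17 SE, adjusted p = 0.00440), and the call held in all 17 alternatives. Gpr27 and Gpr173 differed by 0.59 and −0.08 and did not pass.

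Of 26 other class A orphans, 11 rose and 1 fell, while 14 were not called. That is 42.3% higher and 3.85% lower, against 19.2% and 20.2% of all entries. Gpr83, reported as a receptor for the neuropeptide PEN, had −1.90 and −2.45 with CPEB3 IgG, against −3.99 and −5.25 with control IgG, where only 1 array was above background (2.45 ± 0.49 SE, adjusted p = 0.0218). Gpr153 had 2.06 and 1.39 with CPEB3 IgG, against 0.00085 and −0.82 with control IgG (2.14 ± 0.39 SE, adjusted p = 0.0174). Both had a wider gap between replicates than most called genes. Normexp background correction gave 1.02 for Gpr83 and 1.98 for Gpr153. The call of Gpr83 was lost without CPEB3 IgG replicate 1 (2.18, adjusted p = 0.114) or replicate 2 (2.73, adjusted p = 0.0749). That of Gpr153 was also lost without CPEB3 IgG replicate 1 (1.80, adjusted p = 0.0853) or replicate 2 (2.47, adjusted p = 0.0515).

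Gpr19 had 2.30 and 2.14 with CPEB3 IgG, against 0.62 and 0.70 with control IgG (1.56 ± 0.16 SE, adjusted p = 0.00490). Gpr75 had −2.12 and −1.81 with CPEB3 IgG, against −3.35 and −3.26 with control IgG (1.34 ± 0.18 SE, adjusted p = 0.00877). Gpr176, which acts in the circadian clock of the suprachiasmatic nucleus, had 0.01 and 0.29 with CPEB3 IgG, against −1.21 and −1.09 with control IgG (1.30 ± 0.18 SE, adjusted p = 0.00901). The calls of these 3 genes held in all 17 alternatives. Their differences were smaller with normexp background correction, at 1.41, 0.58 and 0.999 in the same order. Gpr37, a receptor of oligodendrocytes and dopaminergic neurons and a substrate of parkin, had 0.31 and 0.30 with CPEB3 IgG, against −0.87 and −0.90 with control IgG (1.19 ± 0.15 SE, adjusted p = 0.00708). Its relative Gpr37l1, found mainly in astrocytes, differed the other way without passing (−0.87, adjusted p = 0.0974). The difference between these relatives was not tested. Gpr22 (1.32), Gpr146 (1.19), Gpr1 (1.08), Gpr149 (0.89) and the zinc-sensing Gpr39 (0.75) were also called higher. With CPEB3 IgG replicate 2 left out all 5 of these lost their calls (adjusted p = 0.0742, 0.0535, 0.113, 0.107 and 0.177 in the same order). All but Gpr146 lost them without CPEB3 IgG replicate 1 (0.0708, 0.0906, 0.0938 and 0.106). Without control IgG replicate 1 the calls of Gpr1 (0.84), Gpr149 (0.73) and Gpr39 (0.91) were lost, and without control IgG replicate 2 that of Gpr39 (0.58).

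Gpr152 was the only other class A orphan called lower. It had −3.83 and −3.78 with CPEB3 IgG, against −0.96 and −2.56 with control IgG (−2.05 ± 0.56 SE, adjusted p = 0.0480). The control replicates were themselves far apart, and the call was lost without CPEB3 IgG replicate 1 (−2.02, adjusted p = 0.176) or replicate 2 (−2.08, adjusted p = 0.161). It was also lost with quantile (−1.75), median (−1.76), cyclic loess (−1.77) and spike-in scaling (−1.39) and with no filter, and the difference was −1.05 with normexp and −1.25 without control IgG replicate 1. Gpr162, among the brightest genes of the group, did not pass. It had 4.28 and 4.38 with CPEB3 IgG, against 4.20 and 4.37 with control IgG (0.04, adjusted p = 0.845). Its groups overlapped, and it changed sign in 5 alternatives, with values no further below 0 than −0.04. Gpr25 had 1.06 and 1.13 with CPEB3 IgG, against 0.74 and 0.87 with control IgG (0.29, adjusted p = 0.200).

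**Figure D3:**
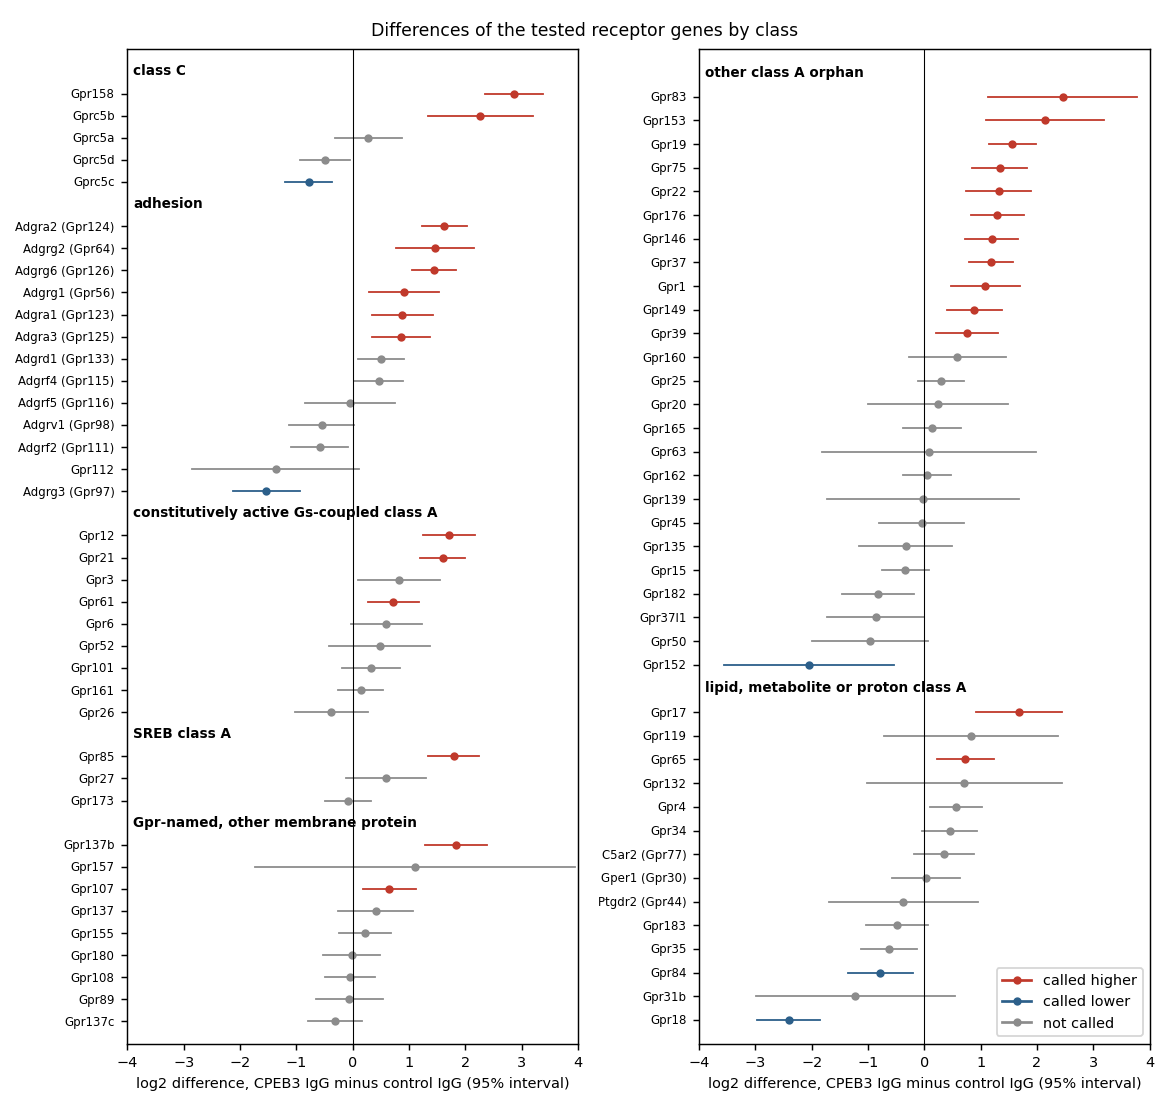
Log2 differences, CPEB3 IgG minus control IgG, of 78 of the 81 tested genes by class, with 95% intervals from limma. Red points were called higher (27), blue points lower (5) and grey points were not called (46), and older names are in parentheses.

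Receptors for lipids, metabolites or protons were called in both directions, with 3 of 15 higher, 2 lower and 10 not called. These shares (20% and 13.3%) lay near the 19.2% and 20.2% of all entries. Gpr17, which marks oligodendrocyte precursors about to mature, had 3.46 and 2.90 with CPEB3 IgG, against 1.73 and 1.26 with control IgG (1.68 ± 0.28 SE, adjusted p = 0.0146). Its call was lost without CPEB3 IgG replicate 1 (1.41, adjusted p = 0.0678). The proton-sensing receptor Gpr65 rose by 0.72 and was above background on only 1 control array. Its call was lost with any 1 array left out (0.60 to 0.85), with normexp background correction (0.15, adjusted p = 0.493), and in 11 of 16 alternatives in all. Its relatives Gpr4 and Gpr132 differed by 0.56 and 0.71 and did not pass. Gpr18, a receptor found mainly on lymphoid cells, had −6.82 and −6.57 with CPEB3 IgG, below background on both arrays, against −4.47 and −4.10 with control IgG (adjusted p = 0.00411). It passed the filter through its control arrays only. With each dim array set at its lowest signal above background, or at the probe's own signal where that is higher, it was 2.06-fold lower. That value takes no account of the spread between arrays or of the background correction. With normexp background correction the call was lost (−0.28, adjusted p = 0.243). Gpr84, which responds to medium-chain fatty acids on myeloid cells, had −3.78 and −3.98 with CPEB3 IgG, against −3.30 and −2.88 with control IgG (−0.79 ± 0.21 SE, adjusted p = 0.0475). Both genes were dim in both precipitates. The call of Gpr84 was lost without CPEB3 IgG replicate 1 (−0.89), CPEB3 IgG replicate 2 (−0.69) or control IgG replicate 2 (−0.58), and in 14 of 17 alternatives in all. Among these, the difference was −0.33 with normexp background correction, −0.50 with median scaling and −0.13 with spike-in scaling (adjusted p = 0.904).

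The adhesion receptors had 6 higher genes of 13 tested, 1 lower and 6 not called. That is 46.2% higher and 7.69% lower, against 19.2% and 20.2% of all entries, over few genes. Adgra2 (Gpr124), needed for blood vessel growth into the brain, had −0.21 and −0.24 with CPEB3 IgG, against −1.90 and −1.79 with control IgG (1.63 ± 0.15 SE, adjusted p = 0.00438). Adgrg6 (Gpr126), needed by Schwann cells to myelinate, had −2.22 and −2.24 with CPEB3 IgG, against −3.64 and −3.72 with control IgG (1.45 ± 0.15 SE, adjusted p = 0.00501). Replicates of both lay within a narrow band and both calls held in all 17 alternatives. The size of the rise was smaller with normexp background correction, at 1.19 for Adgra2 and 0.64 for Adgrg6. Adgrg2 (Gpr64), best known from the epididymis, had −3.72 and −3.10 with CPEB3 IgG, against −4.95 and −4.79 with control IgG, below background on both control arrays. Adgrg2 thus passed the filter only through the group in which it was higher, and it is counted among the 6. The fitted rise of Adgrg2 was 2.75-fold (log2 difference 1.46, adjusted p = 0.0165). Its control signals exceeded the lowest signal above background on their arrays, so that signal gives no lower bound for the rise. The call was lost without CPEB3 IgG replicate 2 (1.15) and with normexp background correction (0.44 on the log2 scale, adjusted p = 0.105). Adgrg1 (Gpr56), whose loss disturbs cortical layering, rose by 0.91, and Adgra1 (Gpr123) and Adgra3 (Gpr125) rose by 0.88 and 0.86.

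These 3 smaller rises were lost without either CPEB3 IgG array. The values were 0.83, 1.05 and 0.73 without replicate 1 and 0.99, 0.72 and 0.98 without replicate 2, for Adgrg1, Adgra1 and Adgra3 in this order. Leaving out control IgG replicate 1 also ended the call of Adgra1 (0.75), and leaving out control IgG replicate 2 those of Adgrg1 (0.65) and Adgra3 (0.73). Adgrg3 (Gpr97), a receptor of granulocytes and other immune cells, was lower, with −0.85 and −1.27 with CPEB3 IgG, against 0.34 and 0.60 with control IgG (−1.53 ± 0.22 SE, adjusted p = 0.00999). Its call held with each array left out and was lost with spike-in scaling (−0.88, adjusted p = 0.298).

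Of 9 tested Gpr-named membrane proteins that are no established receptor, 2 rose (22.2%, near the 19.2% of all entries) and 0 fell. Gpr137b, a lysosomal protein that binds Rag GTPases and mTORC1, had 2.19 and 2.01 with CPEB3 IgG, against 0.46 and 0.07 with control IgG (1.84 ± 0.20 SE, adjusted p = 0.00591). Gpr107, a Golgi protein, rose by 0.65 (adjusted p = 0.0443), and its call was lost with any 1 array left out (0.51 to 0.79). Gpr137 had 3.20 and 3.78 with CPEB3 IgG, against 3.02 and 3.15 with control IgG and did not pass (0.41, adjusted p = 0.257). Gpr157 had 2.37 and 3.35 with CPEB3 IgG, against 0.29 and 3.22 with control IgG. Its 2 control arrays disagreed by more than the groups did, and the difference of 1.104 (adjusted p = 0.449) became −0.36 without control IgG replicate 1 and 2.57 without control IgG replicate 2 (adjusted p = 0.0173). Without these 9 genes, 26 of 72 receptor genes were higher and 5 lower.

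The 18 entries below the filter were not tested. Among them were Gpr33, Gpr55, Gpr82, Gpr141, Gpr142, Gpr143, Gpr151, Gpr171, Gpr174, Gpr179, the second Gpr98 entry, Hcar1 (Gpr81), Adgrf1 (Gpr110) and Adgrg7 (Gpr128).

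Probes at different places of the same mRNA did not always give the same difference. Of 93 receptor probes above the filter, 29 were higher and 4 lower, where 15.8% of all 40616 probes were called higher and 18.9% lower. Several such probes were found for 10 genes. At Gprc5b, the 2 probes shown above, 1343 nt apart, rose by 3.07 and 2.27. At Gpr137b the 3 probes, in order toward the 3′ end, differed by 0.50 (adjusted p = 0.0701), 0.80 (adjusted p = 0.0369) and 1.84 (adjusted p = 0.00754). At Gprc5c the probe nearer the 5′ end gave the larger difference. Its probe nearer the 5′ end had −2.21 and −2.55 with CPEB3 IgG, against −4.50 and −4.11 with control IgG, and was higher by 1.92 (adjusted p = 0.00838). The other probes are at nt 3897 and 3915 of the transcript, where the first is at nt 1955. They start only 18 nt apart and overlap, so no order between them is read. Their differences were −0.14 (not called) and −0.78 (adjusted p = 0.0263). The gene's call in the main count rests on the last of these, the brightest, and the mean of its probes gave 0.33. Adgra1 was higher at the probe nearer the 3′ end only (0.88, against 0.45 for the other, not called), which does not show that its probes differ. The probes of Gpr4 (0.56 and −0.85), Gpr25 (−0.22 and 0.29), Gpr137c (−0.31 and −0.45), Gprc5d (−0.49 and −0.32) and C5ar2 (0.34 and 0.47) were not called. Gpr31b had a dimmer probe called lower (−0.89, adjusted p = 0.0256) and a brighter one that was not (−1.23), at separate places on chromosome 17, where near-identical copies make both uncertain.

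**Figure D4:**
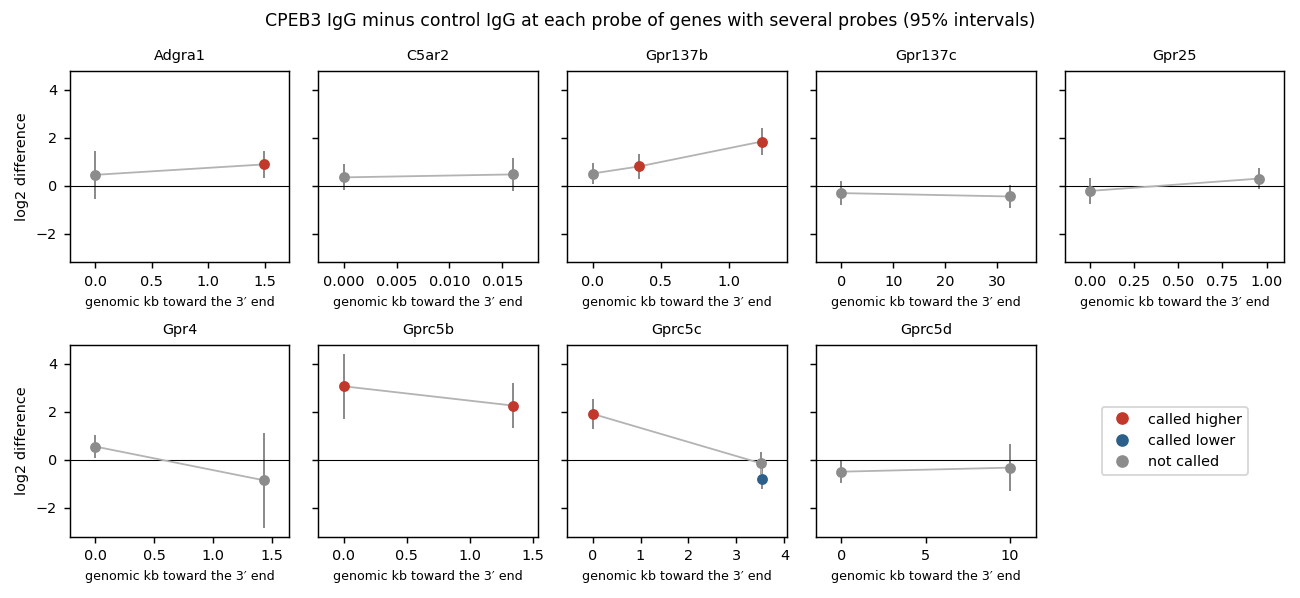
Log2 difference, CPEB3 IgG minus control IgG, at each probe of 9 genes with several probes above background (points, with 95% intervals), against genomic distance in kb from the probe nearest the 5′ end. The difference is larger toward the 3′ end at Gpr137b (0.50, 0.80 and 1.84), while at Gprc5c it is 1.92, −0.14 and −0.78.

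Receptor genes read by probes far from the 5′ end were called higher more often, as were other genes. Of 40 receptor genes whose probe lay beyond nt 2277 of the transcript, their median, 20 were higher and 2 lower. Of 41 at or before it, 8 were higher and 3 lower. The shares called higher were thus 50% and 19.5%, and over all entries with a known position the same limit gave 36.7% and 14.1%. The shares called lower were 5% and 7.32% of the receptor genes, against 12.2% and 24.9% of all entries. Spearman's rho between position and difference was 0.41 over the 81 receptor genes and 0.33 over 21730 other entries, as a description across genes of the same 4 arrays, which are not independent. Probe position moves with the receptor result and its part in it was not tested. The Gpr158 probe lay far along its transcript, at nt 6795, and the Gpr18 probe, at nt 298, had the lowest position of the 81.

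**Figure D5:**
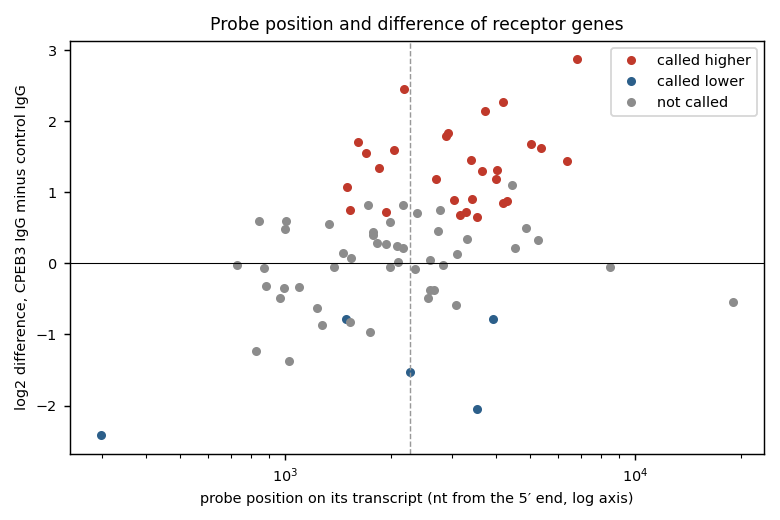
Log2 difference, CPEB3 IgG minus control IgG, against the position of the gene's probe on its transcript (log axis) for the 81 tested receptor genes, with the median of nt 2277 dashed. Higher calls (red) number 20 beyond the line and 8 at or before it.

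The motifs were searched in the 60 bases of each gene's probe, on the strand of the mRNA only, and a match may overlap another motif. TTTTAT or TTTTAAT was in 5 of 81 receptor probes (6.17%) and in 5.02% of all entries' probes. Adgra2 and Gpr61, whose stretches are shown above, were the 2 higher receptor genes with it (2 of 28, 7.14%), and 10.1% of all higher entries had it. AATAAA or ATTAAA was in 24.7% of receptor probes and 17% of all, and TTTTT in 12.3% and 11.5%. Higher receptor genes had TTTTT in 5 of 28 probes (17.9%), among them Gpr85 and Gpr12, against 20.8% of all higher entries. A 60-base probe covers little of a 3′ end, so a probe without a match says nothing of the rest of the mRNA.

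Some receptor genes lie within or across other genes. In the RefSeq table of GRCm38, used for names and neighbours only, 13 of the 33 called genes overlapped a protein-coding gene, and whether their probes read RNA of that gene was not tested. The values of 4 such neighbours are given because they were themselves called, a choice made after seeing them. Of all entries, 39.4% were called in either direction. Other neighbours, among them Iqck, Rabgap1, Erlec1, Cog5, Zdbf2 and Lypd1, were not called. Ubac2, which overlaps Gpr18, had 2.50 and 2.77 with CPEB3 IgG, against −1.02 and −0.60 with control IgG, and rose by 3.45 (adjusted p = 0.00386) where Gpr18 fell. Crebl2 rose by 1.30 (adjusted p = 0.0139) beside the rise of Gpr19. Lims2 and Brf2 were lower, by −0.91 and −0.76, where the overlapping Gpr17 and Adgra2 were higher. The calls of Lims2 and Brf2 were lost with any 1 array left out (−1.07 to −0.74 and −0.86 to −0.67). That of Crebl2 was lost without CPEB3 IgG replicate 1 (1.46) or 2 (1.13).

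The genes downstream of the receptors were called about as often as all entries. Of 62 listed names for G protein subunits, Rgs proteins, receptor kinases and beta-arrestins, 57 were tested, with a second entry for Grk3 under its older name Adrbk2. There were 12 higher and 12 lower (21.1% each, where 19.2% and 20.2% of all entries were called), with a median difference of −0.28, which was 0.01 with median scaling and 0.38 with spike-in scaling. Of 7 tested entries for the kinases that phosphorylate active receptors, 3 were higher and 0 lower. Grk2 had 7.44 and 7.97 with CPEB3 IgG, against 5.26 and 5.16 with control IgG (2.49 ± 0.23 SE, adjusted p = 0.00441), and Grk5 and Grk3 rose by 2.00 and 1.26. The calls of these 3 entries held in all 17 alternatives. The dimmer Adrbk2 entry, with −4.66 and −3.50 with CPEB3 IgG, against −2.62 and −2.73 with control IgG, pointed the other way from Grk3 without passing (−1.41, adjusted p = 0.0606). Grk6 (−0.52), Grk4 (−0.03) and Grk1 (0.25) were not called. The beta subunit Gnb4 was lower, with −1.65 and −1.60 with CPEB3 IgG, against 0.29 and 0.27 with control IgG (−1.91 ± 0.15 SE, adjusted p = 0.00386). Rgs5, of blood vessel walls, and Rgs9, of striatum, were lower by −1.84 each, and Rgs9 lost its call without CPEB3 IgG replicate 1 (−1.76, adjusted p = 0.0568). With spike-in scaling, where 86.4% of all calls were higher, 0 of the list were called lower and 10 higher. Without CPEB3 IgG replicate 1 there were 5 higher and 4 lower, without CPEB3 IgG replicate 2 there were 3 and 7, and without either control array 7 and 7.

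Gpr158 works with Rgs7 and the beta subunit Gnb5, which were looked at after the result for Gpr158 was seen. Rgs7 had 0.50 and 0.71 with CPEB3 IgG, against 1.21 and 1.54 with control IgG, and was lower (−0.77, adjusted p = 0.0407). Gnb5 had 5.03 and 4.66 with CPEB3 IgG, against 4.06 and 4.20 with control IgG, and was higher (0.72, adjusted p = 0.0489). Both calls were lost with any 1 array left out, at −0.93 to −0.60 for Rgs7 and 0.53 to 0.90 for Gnb5, and the mean of Gnb5's probes was −0.16.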

How the data were processed

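RNA from CPEB3 IgG and control IgG precipitates (2 arrays each) had been amplified from 0.2 ug, labelled with Cy3 and hybridised to 1-colour Agilent arrays, per the labels' protocols. The deposited intensity of each spot is the processed signal of Feature Extraction 10.5.1.1, background-subtracted and detrended within the array, with mm9 probe positions, per the file headers. The deposited flags and the mean and background intensity served the filters and an alternative. Depth does not apply; the number of arrays limits the precision. Log2 signals, minus the 75th percentile of the array, were averaged over spots of a probe without outlier spots. Probes well above background on at least 2 arrays were kept, and the brightest probe stood for a gene. Symbols were updated through RefSeq accessions with a GRCm38 table. The fit was limma 3.58.1 (lmFit, eBayes, R 4.3.3) over all entries, checked on simulated arrays, with Benjamini-Hochberg adjustment and 95% intervals. The members and lists were chosen with earlier results of these data known. Genes were named by size of difference within each class: passing members, the 6 brightest not called, genes with several probes and the 3 largest pathway changes each way, except that some genes are not reported here. Alternatives were other scalings, filters, probe summaries, variance priors, thresholds, a replicate block and leaving out arrays.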

Additional observations from a re-analysis of the deposited data

How the results depend on the processing

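Of 33 called receptor genes, 10 kept their call in all 17 alternatives, and these were all called higher (Adgra2, Adgrg6, Gpr12, Gpr19, Gpr21, Gpr75, Gpr85, Gpr137b, Gpr158 and Gpr176). None of the 5 lower calls (0 of 5) held in every alternative, and 32 of the 33 kept their sign, the exception being Gprc5c (0.33 with the mean of probes). The calls of Gpr39, Gpr107, Gpr61 and Adgra1 were lost in 12, 10, 9 and 9 of the 17 alternatives. Calls over all entries also moved with the setting, so a receptor count alone does not set the receptors apart from other genes. Of all calls, 48.7% were higher in the fit reported here, 68.4% with median scaling, 86.4% with spike-in scaling and 46.1% without scaling. The share was 54.8% with quantile, 53.3% with cyclic loess, 59.6% at 0.01, 51.6% with the 2-fold minimum and 51.4% without the filter. Counts of receptor genes are higher then lower. They were 28 and 5, and moved to 35 and 2 with median scaling, 26 and 1 with spike-in scaling, 16 and 5 without scaling, 29 and 3 with quantile, 28 and 3 with cyclic loess, 11 and 2 at an adjusted p of 0.01, 19 and 3 with a 2-fold minimum, and 20 and 5 without the filter. With 1 array left out they ranged from 13 to 26 and from 2 to 6. Receptor probes, 29 and 4, moved to 39 and 2 with median scaling, 28 and 1 with spike-in scaling, 18 and 5 without scaling, 19 and 3 without the filter, 10 and 1 at 0.01, 21 and 2 with the 2-fold minimum, and ranged from 10 to 25 and from 2 to 6 with an array left out. Pathway genes, 12 and 12, moved to 15 and 7 with median scaling, 10 and 0 with spike-in scaling, 4 and 8 without scaling, 8 and 14 with the mean of probes, 4 and 5 at 0.01 and 7 and 7 with the 2-fold minimum, and ranged from 3 to 7 and from 4 to 7 with an array left out. With the replicate block the counts were 30 and 6 receptor genes, 30 and 7 probes, and 12 and 17 pathway genes. The replicate 1 minus 2 differences of the antibodies correlated over probes (r = 0.36), but with 2 pairs the numbers were not taken to pair the samples. Signs turned for Gpr162 (−0.020 with normexp, −0.0024 with quantile, −0.032 with cyclic loess, −0.0035 without CPEB3 IgG replicate 2, −0.042 to 0.13 without either control array), Gpr26 (0.28 with spike-in scaling), Gpr157 (−0.36 and 2.57 without control IgG replicates 1 and 2) and Gnb5 (−0.16 with the mean of probes). Fewer arrays or stricter thresholds leave fewer calls by construction. Median and spike-in scaling raised every difference by the same amount, so that negative differences moved up. The rest of the effect of the scalings was not tested. Leaving out the 9 genes that are no receptor, an alternative chosen after seeing the data, gave 26 and 5. Arrays left alone in a group were assumed to vary like the others.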

Other observations

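Ttr, a transcript of the choroid plexus, differed more between replicates than between antibodies (−0.59 ± 2.43 SE, adjusted p = 0.867). Its levels were 3.92 and −0.94 with CPEB3 IgG replicates 1 and 2, and 4.71 and −0.56 with control IgG replicates 1 and 2. Kl, the other choroid plexus marker, had −0.87 and −1.84 with CPEB3 IgG, against −1.88 and −2.82 with control IgG. In both groups replicate 1 was the higher array for both genes. This gap is part of the spread between replicates, and its cause was not tested. The fit reported here did not pair the arrays by number.

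Rabgap1, which overlaps Gpr21, had 3.50 and 1.53 with CPEB3 IgG, against 7.63 and 3.57 with control IgG, and its difference of −3.09 did not pass (adjusted p = 0.182). Its replicates were far apart in both groups, while those of Gpr21 lay within 0.1 of each other.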
